A study of Mus musculus with 32 samples.

Results

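The genes of the MHC class II pathway were followed in a mouse model of lymphoma of the central nervous system, in cultured lymphoma cells and in whole brains. The set holds 9 of the 19938 genes on the array that have a probe set with a single symbol. Its members are H2-Aa, H2-Ab1, H2-Ea, H2-Eb1, H2-DMa, H2-Oa, H2-Ob, Cd74 and Ciita. They were chosen by name, with earlier results of these data known. Each has 1 such probe set, and no filter on intensity was applied, so all 9 were tested in each comparison.

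BAL17 is a B cell lymphoma line of BALB/c mice, and the labels describe BAL17VII as derived from it. There were 5 whole brains of BALB/c mice at day 21 after implantation of 500000 BAL17VII cells, 5 at day 21 and 5 at day 28 after implantation of as many BAL17 cells, and 5 brains of the PBS group at day 28. Cultured BAL17VII cells and cultured BAL17 cells were represented by 6 arrays each. No PBS brain was taken at day 21, so both comparisons of day 21 brains with PBS differ in day as well. Whether a line's 6 arrays stand for separate cultures is not given in the labels, so p-values measure the spread between these arrays, which may be technical. Both the implanted cells and the hosts were BALB/c, and transcripts of lymphoma and host cannot be told apart on these arrays.

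MHC class II molecules present peptides from the endocytic pathway to CD4 T cells. H2-Aa and H2-Ab1 encode the chains of I-A, and H2-Ea and H2-Eb1 those of I-E. Cd74, the invariant chain, escorts new molecules and blocks their groove, H2-DM exchanges its last fragment for peptide, and H2-O restrains H2-DM in B cells. Ciita is a coactivator without DNA binding of its own. It is recruited to the X and Y boxes of class II promoters by the RFX complex, CREB and NF-Y. B cells and dendritic cells carry class II constitutively, while in other cells, microglia included, interferon gamma can induce it. RefSeq lists H2-Ea as a transcribed pseudogene in the C57BL/6J assembly, whereas BALB/c mice make I-E.

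Class II promoters are known for these boxes, so the members' promoters were read in the RefSeq windows of GRCm38.p6, a C57BL/6J assembly, from 250 bases before to 50 after each start. Windows existed for 5 members, namely H2-Aa, H2-Eb1, H2-DMa, H2-Oa and H2-Ob. The motifs searched on both strands were GCAAC, found in the X box, and GATTGG, the core of the Y box. The 4 members in which both occurred at the spacing of the boxes are shown 5′ to 3′ with 25 flanking bases, all upstream of the start and with the motifs in capitals. Positions are chr17:34287842-34287929 (minus strand) for H2-Aa, chr17:34305751-34305837 (plus) for H2-Eb1, chr17:34092278-34092365 (plus) for H2-Oa and chr17:34238793-34238877 (plus) for H2-Ob.
H2-Aa: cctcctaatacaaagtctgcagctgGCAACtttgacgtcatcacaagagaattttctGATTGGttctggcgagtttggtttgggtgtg
H2-Eb1: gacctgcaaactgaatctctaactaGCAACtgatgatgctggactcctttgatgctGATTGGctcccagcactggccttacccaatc
H2-Oa: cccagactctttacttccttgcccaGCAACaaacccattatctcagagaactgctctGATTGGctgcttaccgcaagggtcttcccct
H2-Ob: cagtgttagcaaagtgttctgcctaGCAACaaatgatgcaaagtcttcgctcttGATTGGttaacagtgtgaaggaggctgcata

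GCAAC began 32 bases before GATTGG in H2-Aa and H2-Oa, 31 in H2-Eb1 and 29 in H2-Ob. GATTGG alone was present in 16.109% of 32851 promoter windows and GCAAC alone in 35.207%. Both together, with GCAAC 25 to 35 bases ahead, occurred in 67 windows, or 0.204%. That spacing was chosen after the sequences had been seen. Of the 2 H2-DMa windows, one held GCAAC and the other GATTGG, without the pair. The printed letters belong to C57BL/6J and not to BALB/c, and a match is a description only.

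Levels are log2 intensities of an array normalized by RMA, which gives no detection call, so a low value is not a measured absence. Gene medians per array lay between 6.51 and 6.62 in cultured cells and between 6.65 and 6.74 in brains. The labelled material fitted its markers: of 13 B lineage genes 2 lay below the array median in each cultured line and 12 did in PBS brains, while none of 6 brain genes did in any brain group. The B lineage genes below the median in both lines were Ms4a1, which encodes CD20, at 5.30 in BAL17VII cells and 5.31 in BAL17 cells, and Blk, a kinase gene, at 5.99 in BAL17VII cells and 5.97 in BAL17 cells. The library labelled BAL17VII brain replicate 1 stood apart from the other 4 of its group, with a B lineage mean of 6.02, against 5.86 to 6.13 in PBS brains. Its mean over the 9 members was 6.15, against 6.13 to 6.20 in PBS brains. The main results of the members that rest on this array are given with and without it. Counts and fold changes of the other gene lists, and the fits with the B lineage mean as covariate, are given only with it. The array numbers in the labels form one series for cells and another for brains. Differences between brains and cultured cells, and whatever came with those separate series, cannot be told apart. H2 genes are a family of similar copies, which leaves their values uncertain where probes are shared.

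**Figure D1:**
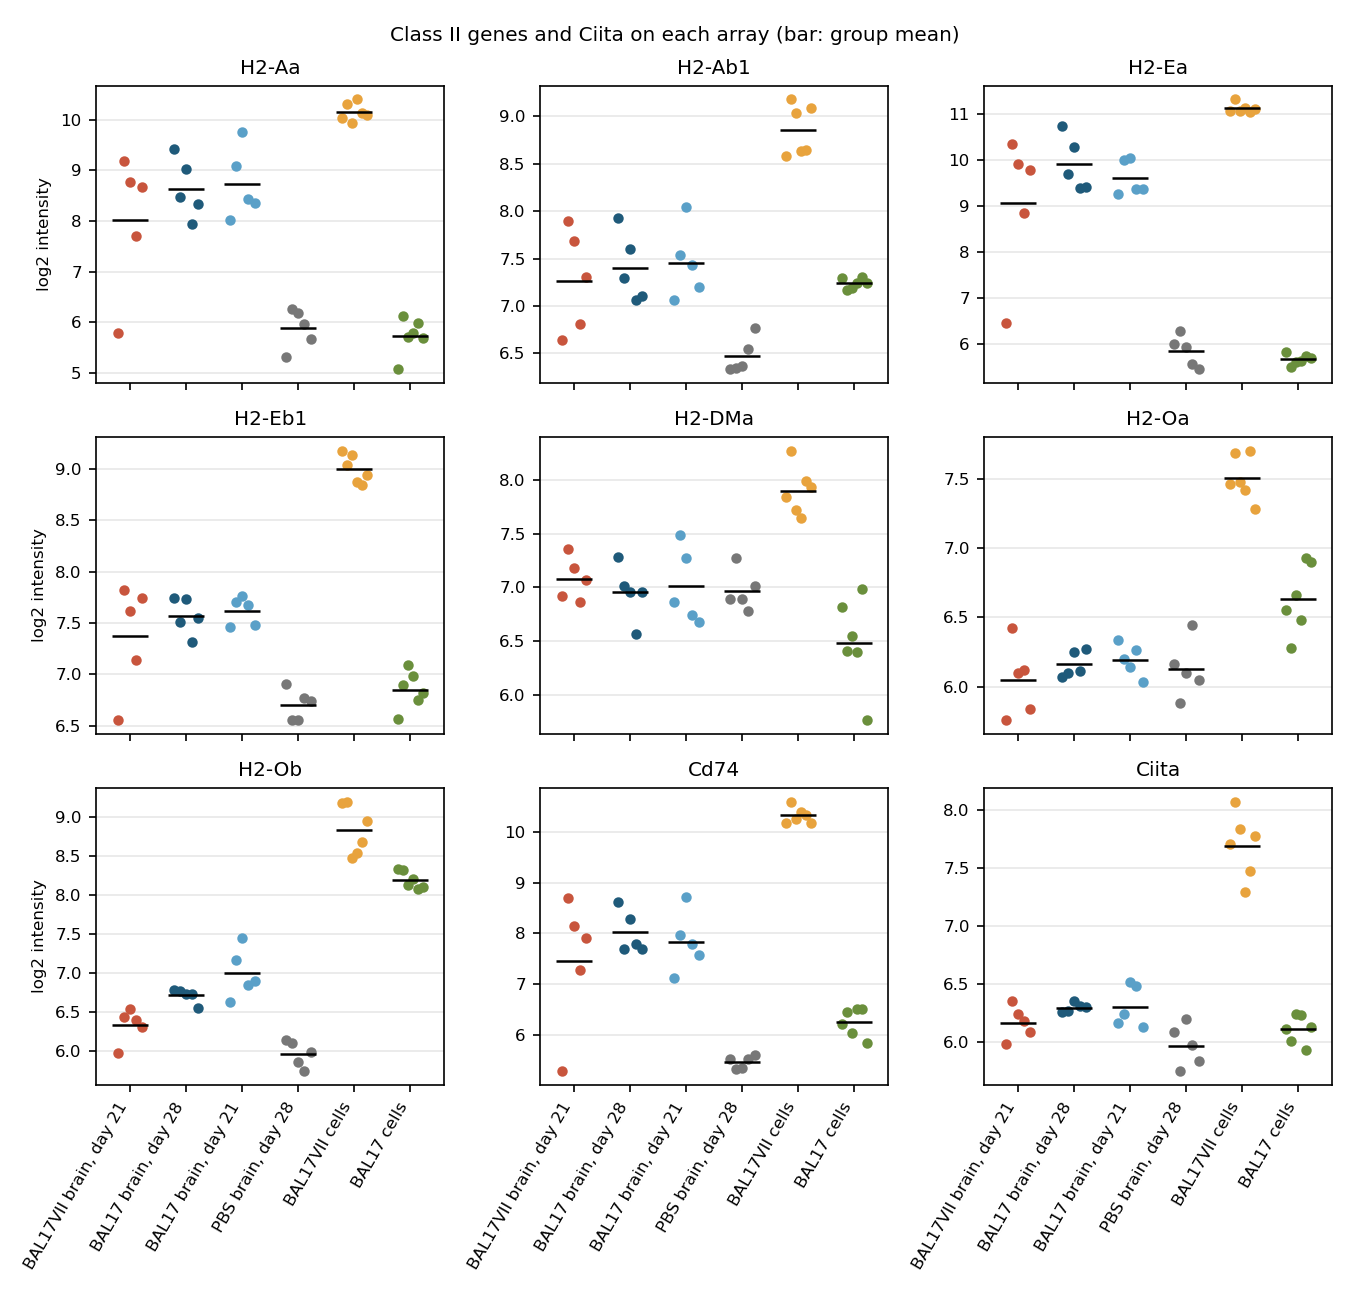
Log2 intensity of each member on each array (points) with the group mean (bar), in the groups BAL17VII brain day 21, BAL17 brain day 28, BAL17 brain day 21, PBS brain day 28, BAL17VII cells and BAL17 cells. In H2-Aa, H2-Ea and H2-Eb1 the BAL17 cells lie at the level of PBS brains, and for each member the BAL17VII cells have the highest mean.

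The first question was how the cultured lines differ. All 9 members were higher in BAL17VII cells than in BAL17 cells, and the values of the lines overlapped for none of them. How many of all genes lack such overlap was not counted, so this is a description only. The measured folds were 43.6 for H2-Ea, 21.5 for H2-Aa and 16.6 for Cd74, and below 2 for the H2-O genes. BAL17 means of H2-Ea, H2-Aa and Cd74 lay under the median gene, where background signal left after RMA can make a fold too small, so these folds give no order between the genes. Over all 19938 genes 8.48% were called higher, at an adjusted p under 0.05 in limma.

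H2-Ea had a lowest, median and highest value of 11.03, 11.08 and 11.30 in BAL17VII cells, against 5.50, 5.66 and 5.82 in BAL17 cells. H2-Aa had 9.93, 10.11 and 10.40 in BAL17VII cells, against 5.07, 5.75 and 6.12 in BAL17 cells. Cd74 had 10.18, 10.30 and 10.59 in BAL17VII cells, against 5.85, 6.33 and 6.52 in BAL17 cells. Every BAL17VII array thus lay more than 3 log2 units above every BAL17 array in these genes, and most BAL17 values fell under the median gene of their array. The log2 fold changes were 5.45 ± 0.07 (SE) for H2-Ea (adjusted p = 4.55e-16), 4.43 ± 0.15 for H2-Aa (adjusted p = 1.57e-11) and 4.06 ± 0.12 for Cd74 (adjusted p = 5.65e-12).

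The beta chain genes were higher in BAL17VII cells as well. H2-Eb1 had 8.84, 8.99 and 9.18 as its lowest, median and highest value in BAL17VII cells, against 6.56, 6.86 and 7.09 in BAL17 cells. For H2-Ab1 these were 8.58, 8.84 and 9.18 in BAL17VII cells, against 7.17, 7.24 and 7.30 in BAL17 cells, which is above the median gene of the array in both lines. H2-Eb1 rose by 2.15 ± 0.09 on the log2 scale (adjusted p = 3.51e-10) and H2-Ab1 by 1.62 ± 0.10 (adjusted p = 3.64e-08). Probe sets answer to their targets unequally, so the size of a level is not compared between genes.

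Ciita, the coactivator, had 7.29, 7.74 and 8.07 in BAL17VII cells, against 5.93, 6.13 and 6.24 in BAL17 cells. Here too BAL17 cells lay under the median gene and BAL17VII cells above it. Its log2 fold change was 1.58 ± 0.11 (adjusted p = 1.21e-07). The peptide editor H2-DMa ranged from 7.64 to 8.27 in BAL17VII cells and from 5.76 to 6.99 in BAL17 cells, a log2 fold change of 1.41 ± 0.17 (adjusted p = 3.00e-05). The H2-O chains were higher too, H2-Oa by 0.87 ± 0.11 (adjusted p = 6.06e-05) and H2-Ob by 0.64 ± 0.13 (adjusted p = 0.00209). H2-Ob, unlike H2-Aa or Cd74, was well above the median gene in both lines, at 8.48 to 9.20 in BAL17VII cells and 8.08 to 8.33 in BAL17 cells.

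Genes that work on class II molecules after their synthesis were partly higher in BAL17VII cells. Of 11 such genes 7 rose, 0 fell and 4 were not called, with a median log2 fold change of 0.46, beside -0.01 over all genes and 1.62 over the members. They were led by the cathepsin genes Ctsh (1.38 ± 0.09), Ctsl (1.66 ± 0.15) and Ctss (0.53 ± 0.07), whose products degrade proteins in endosomes, and by Ifi30, a thiol reductase of antigen processing (0.62 ± 0.07). H2-DMb1 and H2-DMb2, the partners of H2-DMa, share a probe set with several symbols and have no value here.

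Of 20 regulators of class II genes 7 rose and 2 fell. Spi1, which encodes the transcription factor PU.1, rose by 1.50 ± 0.10, Bcl6, a repressor of germinal centre B cells, by 0.85 ± 0.10, and the acetyltransferase genes Kat2b and Crebbp by 0.35 ± 0.06 and 0.28 ± 0.07. The genes of the RFX complex, picked for their role with values known, were not called and lay at 0.03 ± 0.09 (Rfx5), 0.02 ± 0.07 (Rfxap) and -0.05 ± 0.08 (Rfxank). Of 8 genes of the interferon gamma pathway 5 rose and 1 fell, among them the kinase gene Jak2 (1.22 ± 0.08), the receptor genes Ifngr2 (0.64 ± 0.08) and Ifngr1 (0.46 ± 0.08) and the transcription factor gene Irf1 (0.58 ± 0.08). The B lineage list held 5 genes that rose and 2 that fell out of 13, with a median of 0.02. Of 11 macrophage genes 5 rose, led by Cybb, a subunit of the phagocyte oxidase that B cells also express, with a mean of 10.59 in BAL17VII cells and 7.65 in BAL17 cells.

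The second question was what class II genes did in brains that had received the lymphoma cells. H2-Aa, H2-Ab1, H2-Ea, H2-Eb1 and Cd74 were higher than in PBS brains in each implanted group, and H2-Ea had measured folds of 9.33 to 16.6, against PBS values under the median gene. H2-DMa and H2-Oa were not called in any implanted group. Ciita differed by at most 1.26-fold. The 3 comparisons share the PBS brains, so their results are not independent of each other. In a whole brain, fewer cells of a type and less RNA per cell cannot be told apart.

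BAL17 brains at day 21 had H2-Aa at 8.02, 9.08, 9.77, 8.44 and 8.35, against 5.31, 6.26, 6.17, 5.97 and 5.67 in PBS brains. H2-Ea stood at 9.26, 9.99, 10.03, 9.36 and 9.37 in these BAL17 brains, against 6.01, 6.27, 5.94, 5.57 and 5.45 in PBS brains. Cd74 was measured at 7.13, 7.97, 8.71, 7.79 and 7.58 in the BAL17 brains, against 5.54, 5.33, 5.36, 5.54 and 5.62 in PBS brains. Each BAL17 brain was above each PBS brain in these genes, by at least 1.5 log2 units. H2-Ea rose by 3.75 ± 0.46 (adjusted p = 2.57e-06), H2-Aa by 2.86 ± 0.45 (adjusted p = 4.70e-05) and Cd74 by 2.36 ± 0.40 (adjusted p = 0.000117).

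In the same brains the beta chain genes rose, H2-Ab1 by 0.98 ± 0.21 (adjusted p = 0.00123) and H2-Eb1 by 0.91 ± 0.17 (adjusted p = 0.000225). H2-Ob had 6.63, 7.17, 7.46, 6.85 and 6.90 in BAL17 brains at day 21, against 6.15, 6.10, 5.87, 5.74 and 5.99 in PBS brains. These values did not overlap, and the log2 fold change was 1.03 ± 0.13 (adjusted p = 2.42e-06). Ciita had 6.17, 6.25, 6.52, 6.48 and 6.13 in the BAL17 brains, against 6.09, 5.75, 6.20, 5.98 and 5.84 in PBS brains. The groups overlapped and lay below the median gene, and Ciita passed the test with 0.34 ± 0.10 (adjusted p = 0.00994). Under quantile normalization of the 20 brain arrays its adjusted p was 0.0536. In all, 7 of the 9 members rose, where 11.0% of all genes were called higher. The differences of the remaining members were 0.04 for H2-DMa, with a 95% interval of -0.26 to 0.34, and 0.07 for H2-Oa, with an interval of -0.17 to 0.30.

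At day 28, the day of the PBS brains, H2-Aa stood at 9.42, 8.47, 9.02, 7.95 and 8.34 in BAL17 brains, and H2-Ea at 10.72, 9.70, 10.27, 9.38 and 9.42. Cd74 had 8.63, 7.69, 8.29, 7.80 and 7.69. None of these brains fell within the range of the PBS brains given above. The log2 fold changes against PBS were 2.76 ± 0.45 for H2-Aa (adjusted p = 0.000155), 4.05 ± 0.46 for H2-Ea (adjusted p = 1.88e-06) and 2.54 ± 0.40 for Cd74 (adjusted p = 0.000116). H2-Ab1 rose by 0.93 ± 0.21, H2-Eb1 by 0.86 ± 0.17 and H2-Ob by 0.75 ± 0.13. Ciita rose by 0.33 ± 0.10 (adjusted p = 0.0198), a call that was lost without PBS brain 2 (adjusted p = 0.0684), without PBS brain 5 (adjusted p = 0.0549) and under quantile normalization (adjusted p = 0.0541). Again 7 of 9 members were called higher, beside 6.56% of all genes, while H2-DMa had -0.01 ± 0.15 and H2-Oa 0.03 ± 0.11.

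In BAL17VII brains at day 21, replicate 1 lay far from the other 4 in H2-Aa, H2-Ea and Cd74. H2-Aa stood at 5.79, 9.19, 8.77, 7.71 and 8.67 in replicates 1 to 5, and H2-Ea at 6.46, 10.35, 9.90, 8.85 and 9.78. Cd74 had 5.28, 8.69, 8.15, 7.28 and 7.91. Replicate 1 was inside the PBS range for H2-Aa, below all PBS brains for Cd74 and just above the highest PBS brain for H2-Ea, whereas the other 4 brains were above all PBS brains in the 3 genes. Against PBS the log2 fold changes were 2.15 ± 0.45 for H2-Aa (adjusted p = 0.00813), 3.22 ± 0.46 for H2-Ea (adjusted p = 0.000439) and 1.99 ± 0.40 for Cd74 (adjusted p = 0.00636). Without replicate 1 they were 2.71, 3.87 and 2.53.

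H2-Eb1 rose by 0.67 ± 0.17 (adjusted p = 0.0281) and H2-Ab1 by 0.80 ± 0.21 (adjusted p = 0.0446) in BAL17VII brains, which made 5 called members beside 2.05% of all genes called higher. Both calls were lost, leaving 3 members, without BAL17VII brain 2, 3 or 5 and without PBS brain 2, 3, 4 or 5, and a fit on the 10 arrays of these groups left 2 members called, H2-Aa and H2-Ea. H2-Ob had 5.98, 6.43, 6.54, 6.39 and 6.30 in BAL17VII brains and was not called (0.36 ± 0.13, adjusted p = 0.132). Without BAL17VII brain 1 it was called with 0.45 (adjusted p = 0.0435), so that 6 members were. Ciita had a difference of 0.20 ± 0.10 (adjusted p = 0.31), H2-DMa of 0.11 ± 0.15 and H2-Oa of -0.08 ± 0.11.

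**Figure D2:**
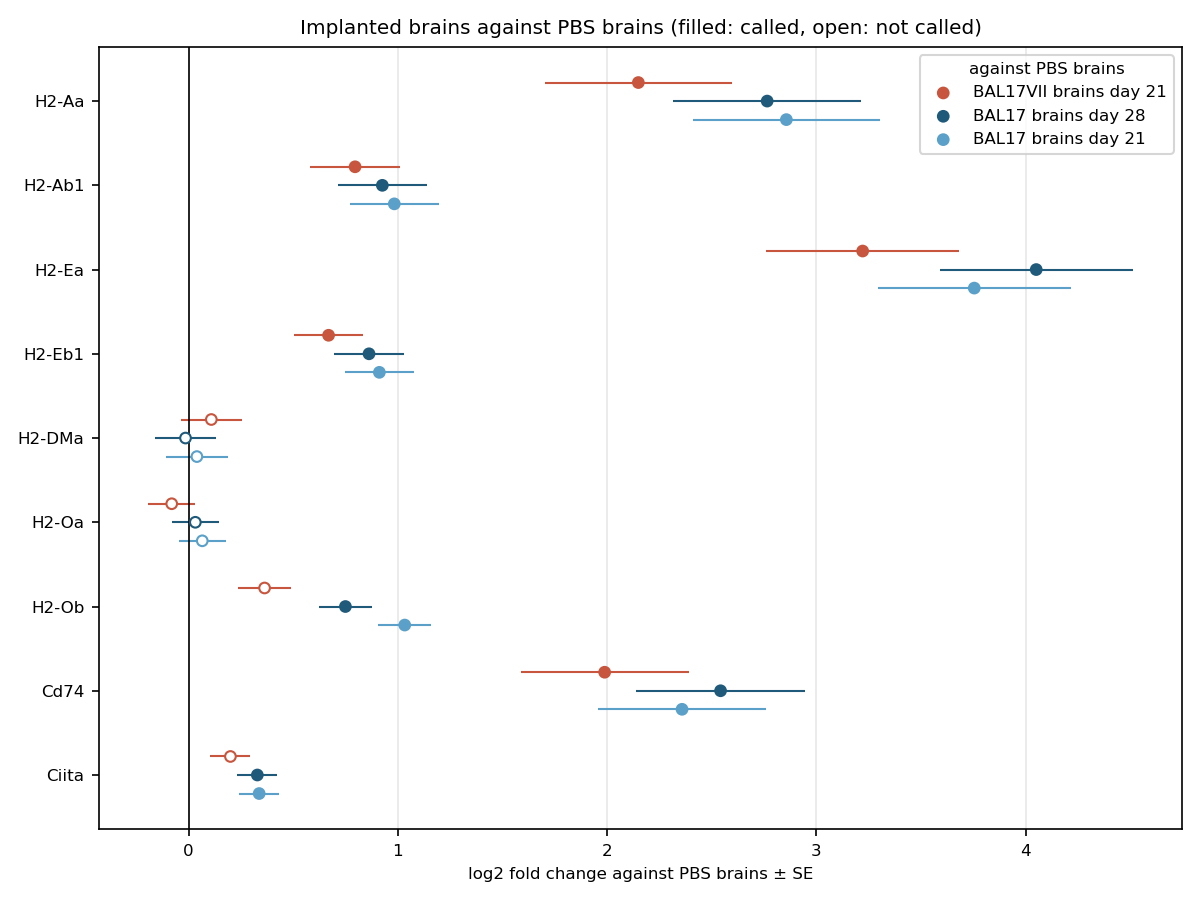
Log2 fold change ± SE of each member in BAL17VII brains day 21, BAL17 brains day 28 and BAL17 brains day 21, each against the same 5 PBS brains (filled points passed the test, open points did not). H2-Ea lies between 3.22 and 4.05 and Ciita between 0.20 and 0.34.

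Genes of other cell types moved beside the class II genes in these brains. B lineage genes rose at 12 of 13 in BAL17 brains at day 21, with a median of 1.69, at 11 of 13 at day 28 with 1.75, and at 8 of 13 in BAL17VII brains with 0.87. Btk, a kinase of B cell receptor signalling, rose by 2.89 ± 0.24, 2.73 ± 0.24 and 1.91 ± 0.24 in that order. B lineage list means per brain ran from 6.02 to 7.47 in BAL17VII brains, 7.33 to 7.78 in BAL17 brains at day 21 and 7.61 to 7.87 at day 28, against 5.86 to 6.13 in PBS brains. With that mean as a covariate no member was called against PBS in any implanted group. Over all genes 0 were called in BAL17VII brains, 1 in BAL17 brains at day 21 and 0 at day 28. The covariate nearly separates implanted from PBS brains, so this fit cannot tell group and B lineage level apart.

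Macrophage genes rose in part, 4 of 11 in BAL17 brains at day 21 (2 fell), 4 at day 28 and 2 in BAL17VII brains. Itgam, the gene of that list with the smallest adjusted p at day 21, was among those that fell. Its mean was 5.88 in BAL17 brains at day 21, against 6.77 in PBS brains. Lyz2, the macrophage lysozyme gene, had means of 8.73 in BAL17VII brains, 9.01 in BAL17 brains at day 21 and 9.29 at day 28, against 7.44 in PBS brains, and it was low in both lines (5.23 in BAL17VII cells and 5.43 in BAL17 cells). Macrophage list means per brain ran from 6.39 to 7.005 in BAL17VII brains, 6.35 to 6.82 in BAL17 brains at day 21 and 6.43 to 7.12 at day 28, against 6.13 to 6.56 in PBS brains. Of 10 dendritic cell genes 2 rose at either day in BAL17 brains, Ccr7 (0.96 ± 0.15 and 0.82 ± 0.15) and Clec9a (0.36 ± 0.11 and 0.41 ± 0.11), and 0 in BAL17VII brains. Siglech, a gene of plasmacytoid dendritic cells and microglia, fell at day 21 (-0.37 ± 0.11), and Ccr7 was higher in the cultured lines, at means of 8.19 in BAL17VII cells and 7.80 in BAL17 cells, than in any brain group (at most 7.50). Dendritic cell list means stayed under the median gene, at 5.61 to 5.90 in BAL17VII brains, 5.73 to 5.99 in BAL17 brains at day 21 and 5.73 to 5.89 at day 28, against 5.57 to 5.73 in PBS brains. Microglia genes fell in 8 of 9 in BAL17 brains at day 21, among them P2ry13 (-0.82 ± 0.12), in 2 at day 28 and in 0 in BAL17VII brains. The part of these cells in the class II levels was not tested.

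Of the 11 processing genes 4 rose and 3 fell in BAL17 brains at day 21, 2 rose and 1 fell at day 28 and 1 rose in BAL17VII brains. Ifi30 was called in each comparison, with 2.32 ± 0.38 in BAL17VII brains and 2.75 ± 0.38 and 2.78 ± 0.38 in BAL17 brains at days 21 and 28, and both cultured lines had it far above the median gene, at means of 11.35 and 10.73 in BAL17VII and BAL17 cells. Sppl2a, a protease that cuts the remnant of Cd74, rose in BAL17 brains by 0.64 ± 0.08 at day 21 and 0.35 ± 0.08 at day 28. Of 20 regulators 7 rose and 5 fell at day 21, 5 rose and 1 fell at day 28, and 2 rose in BAL17VII brains. Spi1 rose by 0.82 ± 0.11 in BAL17VII brains, and by 0.79 ± 0.11 and 0.66 ± 0.11 in BAL17 brains at days 21 and 28, and Nfya, a subunit of NF-Y, by 0.30 ± 0.08, 0.47 ± 0.08 and 0.39 ± 0.08 in that order.

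Of the 8 interferon gamma pathway genes 2 rose and 1 fell in BAL17 brains at day 21, 2 rose at day 28 and 1 rose in BAL17VII brains. Irf2 and Irf1, which encode transcription factors of the interferon response, had 0.43 ± 0.08 and 0.44 ± 0.15 at day 21 and 0.51 ± 0.08 and 0.52 ± 0.15 at day 28. Ifng itself was not called against PBS, with means of 5.87 in BAL17VII brains, 5.94 in BAL17 brains at day 21 and 5.96 at day 28, against 5.80 in PBS brains, all under the median gene. T cell genes rose at 4 of 8 in BAL17 brains at day 21, 3 at day 28 (1 fell) and 1 in BAL17VII brains, with Cd2 at 2.28 ± 0.35, 2.36 ± 0.35 and 2.27 ± 0.35 in that order. Cd2 was also expressed by the cultured lines, at means of 11.50 in BAL17VII cells and 9.48 in BAL17 cells, above the 7.96 to 8.05 of the implanted groups. On the same list, Cd3g had 0.94 ± 0.22 and 0.89 ± 0.22 in BAL17 brains at days 21 and 28. Cd3g too was higher in the cultured lines, at means of 5.73 in BAL17VII cells and 7.35 in BAL17 cells. Its means in BAL17 brains were 5.56 at day 21 and 5.52 at day 28. Lag3 and Cd3e also rose at day 21, to means of 5.74 and 6.56, against 5.48 and 6.18 in PBS brains and 5.88 and 6.63 in BAL17 cells. Lag3 rose at day 28 too, to 5.76. Cd8a was not called in any implanted group, and Cd4 was lower at day 28 (-0.46 ± 0.13). In each implanted group 7 of the 8 T cell genes lay below the array median.

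The third question was whether the implanted lines differ in the brain. At day 21 no member was called higher in BAL17VII brains than in BAL17 brains, and 8 of 9 differences were negative. H2-Ob was the member that passed the test and was lower in BAL17VII brains, by -0.67 ± 0.13 (adjusted p = 0.00151), with values of 5.98 to 6.54 in BAL17VII brains and 6.63 to 7.46 in BAL17 brains that did not overlap. Over all genes 4.55% were called lower. H2-Aa had -0.71 ± 0.45 (95% interval -1.63 to 0.22), H2-Ea -0.53 ± 0.46 (-1.49 to 0.42) and Cd74 -0.37 ± 0.40 (-1.20 to 0.46). Without BAL17VII brain 1 these were -0.15, 0.12 and 0.18, while H2-Ob kept its call at -0.58 (adjusted p = 0.00580).

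B lineage genes were lower in the same comparison, 7 of 13 with a median of -0.72, and 7 of 9 microglia genes were higher. With the B lineage mean as a covariate H2-Ob was no longer called (-0.42, adjusted p = 0.215), and Cd74 was called higher in BAL17VII brains (1.16, adjusted p = 0.00815), with H2-Ea at 1.15 (adjusted p = 0.0618) and H2-Aa at 0.95 (adjusted p = 0.0988). That fit was not repeated without BAL17VII brain 1. The B lineage mean of that brain was 6.02, against 6.91 to 7.47 in the others of its group, and its Cd74 lay below all PBS brains. Among related genes Sppl2a was lower (-0.38 ± 0.08) and Marchf1, an E3 ligase that removes class II from the surface, was higher (0.66 ± 0.15) in BAL17VII brains. The Marchf1 mean was 8.06 in BAL17VII brains and 7.40 in BAL17 brains, against 8.03 in PBS brains, so BAL17VII brains lay near the PBS level. Of 6 brain genes 5 were higher in BAL17VII brains as well.

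The difference of differences, in one fit over 32 arrays, compared the line difference in brains at day 21 with that in culture. All 9 members were called lower, beside 7.13% of all genes. The values were -5.98 ± 0.52 for H2-Ea (adjusted p = 2.06e-10), -5.13 ± 0.52 for H2-Aa (adjusted p = 5.90e-09) and -4.43 ± 0.47 for Cd74 (adjusted p = 1.16e-08). H2-Eb1 had -2.39 ± 0.20, H2-Ab1 -1.81 ± 0.26, Ciita -1.72 ± 0.15, H2-DMa -1.35 ± 0.23, H2-Ob -1.31 ± 0.18 and H2-Oa -1.02 ± 0.16. Without BAL17VII brain 1 all 9 were called, with H2-Ea at -5.33, H2-Aa at -4.57 and Cd74 at -3.88. In the B lineage list 7 of 13 genes were called lower and 1 higher, with a median of -0.92 beside -1.81 for the members. Spi1 (-1.48 ± 0.16), Jak2 (-1.09 ± 0.13), Irf1 (-0.82 ± 0.18) and Ctsh (-1.57 ± 0.19) were lower too. B lineage means were 8.97 to 9.27 in BAL17VII cells and 8.97 to 9.08 in BAL17 cells, above those of all brains, and their part in the result was not tested.

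**Figure D3:**
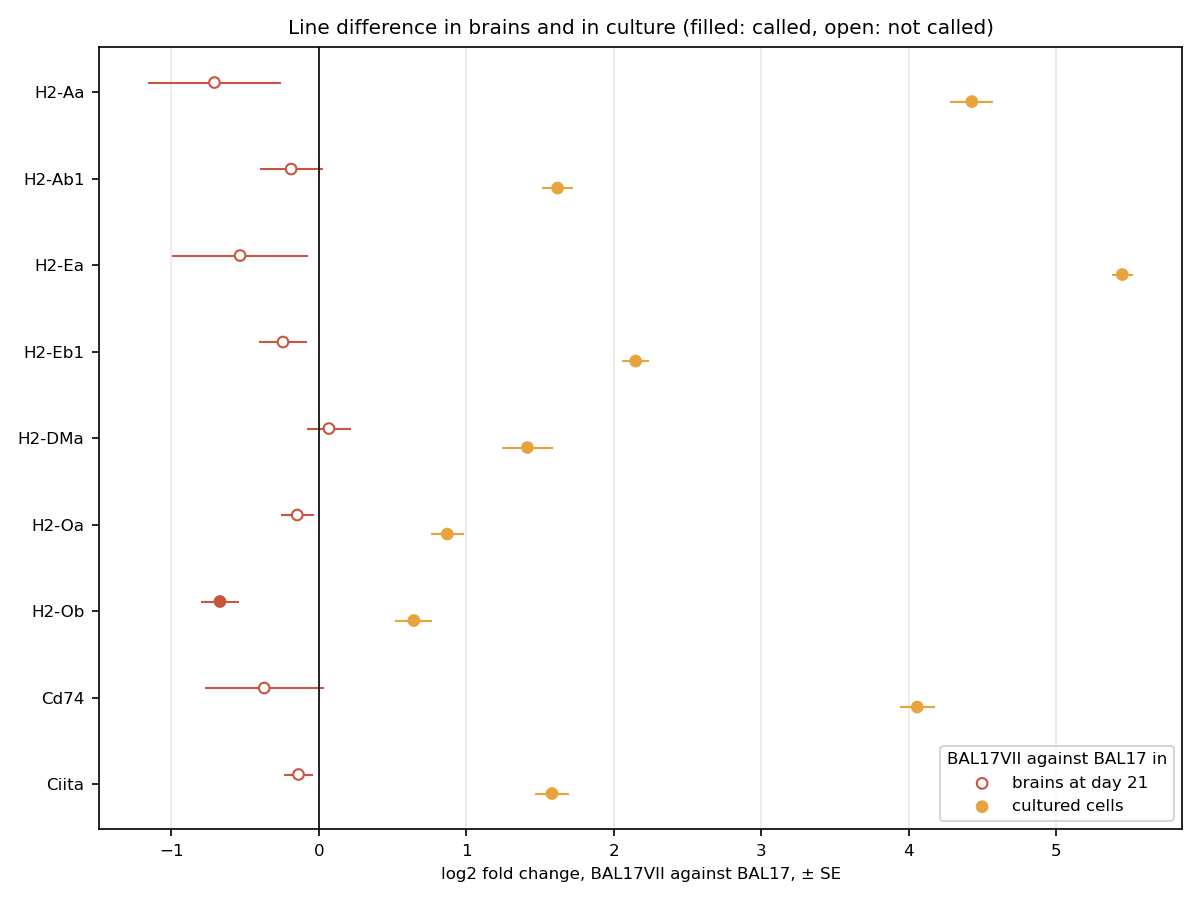
Log2 fold change ± SE of BAL17VII against BAL17 for each member, in brains at day 21 and in cultured cells (filled points passed the test, open points did not). In culture each member lies between 0.64 and 5.45, and in brains between -0.71 and 0.07.

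Class II levels were also compared between days. Between day 28 and day 21 of the BAL17 brains 0 of 9 members were called in limma, beside 0.391% of all genes called higher and 0.221% called lower, and 1 member, H2-Ob, had an unadjusted p under 0.05, as did 1974 of the 19938 genes. H2-Ob had -0.28 ± 0.13 (adjusted p = 0.439), with 6.79, 6.77, 6.73, 6.74 and 6.56 at day 28 and the day 21 values given above. The 95% intervals ran from -1.02 to 0.84 for H2-Aa, from -0.66 to 1.25 for H2-Ea and from -0.65 to 1.02 for Cd74, so they include changes of 2-fold in 1 direction or the other. That of Ciita was narrower, from -0.21 to 0.19.

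Set against the cultured line that was implanted, BAL17 and BAL17VII brains moved in opposite directions in part of the members. In BAL17 brains at day 21, H2-Ea, H2-Aa and Cd74 were higher than in BAL17 cells, by 3.94 ± 0.37 (adjusted p = 1.88e-11), 3.01 ± 0.37 (adjusted p = 8.71e-09) and 1.57 ± 0.33 (adjusted p = 8.97e-05). The lowest of these brains, at 9.26, 8.02 and 7.13, lay above the highest BAL17 culture array, at 5.82, 6.12 and 6.52. H2-Eb1 (0.77 ± 0.14) and H2-DMa (0.52 ± 0.16, adjusted p = 0.00552) were higher too. H2-Ob was lower in brains (-1.20 ± 0.13, adjusted p = 4.85e-10), as was H2-Oa (-0.44 ± 0.11, adjusted p = 0.00104). H2-Ab1 (0.22 ± 0.18) and Ciita (0.20 ± 0.11, adjusted p = 0.0985) were not called. That gave 5 members higher beside 24.2% of all genes, and 2 lower beside 41.9%.

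At day 28 the counts against BAL17 cells were again 5 higher and 2 lower, beside 24.4% and 43.9% of all genes. H2-Ea had 4.23 ± 0.37, H2-Aa 2.91 ± 0.37, Cd74 1.75 ± 0.33 and H2-Eb1 0.72 ± 0.14, while H2-Ob had -1.48 ± 0.13 and H2-Oa -0.47 ± 0.11. H2-DMa passed with 0.47 ± 0.16 (adjusted p = 0.0118), and its call was lost without BAL17 culture array 6 (adjusted p = 0.0543), under quantile normalization (adjusted p = 0.0551) and with each array centred on its median (adjusted p = 0.0627). Ciita at 0.19 ± 0.11 was not called (adjusted p = 0.111). A fit on the 11 arrays of these groups called it (adjusted p = 0.0284), and an exact permutation test gave p = 0.0108 unadjusted.

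B lineage genes went the other way from H2-Aa and H2-Ea in these brains. Of 13 genes 11 were lower at day 21 than in BAL17 cells, with a median of -1.66, and 12 at day 28, with -1.81, beside -0.15 and -0.17 over all genes. The 1 that was higher at either day was Ms4a1, named after its values were seen, with means of 7.26 in BAL17 brains at day 21 and 7.97 at day 28, against 5.31 in BAL17 cells and 4.95 in PBS brains. Its log2 fold change at day 21 was 1.94 ± 0.33 against BAL17 cells. Of 11 macrophage genes 6 were higher and 1 lower at day 21 than in BAL17 cells, with a median of 0.27. Among the higher ones were Lyz2 (3.58 ± 0.26), Mrc1 (1.25 ± 0.16) and Csf1r (1.09 ± 0.11). Csf1r had a mean of 7.42 in these brains, below the 7.97 of PBS brains. Lyz2 and Mrc1, at 9.01 and 7.20, were above their PBS means of 7.44 and 6.42. In H2-Aa, H2-Ea, H2-Eb1 and Cd74 alike, BAL17 brains thus had higher levels than either of the materials set beside them, the cultured line and the PBS brain. Whether lymphoma or host cells carried these transcripts was not tested.

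BAL17VII brains at day 21 had less of every member than BAL17VII cells, with all 9 called lower, beside 44.8% of all genes. Cd74 had -2.86 ± 0.33 (adjusted p = 1.76e-09), H2-Ob -2.51 ± 0.13, H2-Aa -2.13 ± 0.37 (adjusted p = 4.81e-06), H2-Ea -2.04 ± 0.37 (adjusted p = 9.13e-06) and H2-DMa -0.82 ± 0.16, with the other 4 between -1.62 and -1.46. Without BAL17VII brain 1 all 9 were called, with Cd74 at -2.31, H2-Aa at -1.57 and H2-Ea at -1.39. B lineage genes were lower in 12 of 13, with a median of -2.51, beside -1.62 for the members and -0.18 for all genes. Ms4a1 was higher here as well, by 0.86 ± 0.33. The part of the B lineage level in these falls was not tested.

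**Figure D4:**
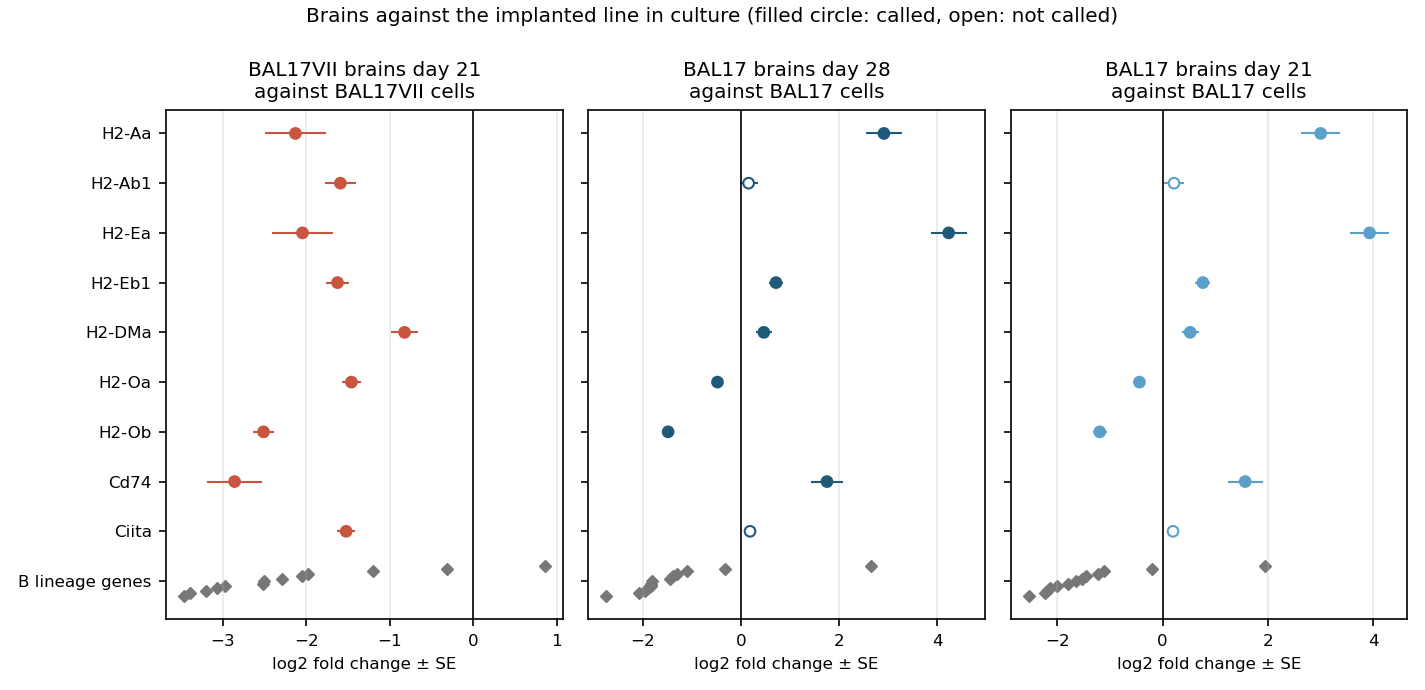
Log2 fold change ± SE of each member in BAL17VII brains day 21 against BAL17VII cells, and in BAL17 brains day 28 and day 21 against BAL17 cells (filled circles passed the test), with the 13 B lineage genes as grey diamonds. H2-Ea, H2-Aa and Cd74 lie right of 0 in the BAL17 panels, where the median of the B lineage genes is -1.81 at day 28 and -1.66 at day 21.

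Ordered by group mean, each member was highest in BAL17VII cells, and the values of that group did not overlap with those of the next in any member. The share of all genes with such a gap was not counted. H2-Aa followed with 8.73 in BAL17 brains at day 21, 8.64 at day 28 and 8.02 in BAL17VII brains, then 5.88 in PBS brains and 5.73 in BAL17 cells. The implanted groups overlapped with each other, BAL17VII brains overlapped with PBS brains through replicate 1, and PBS brains overlapped with BAL17 cells. H2-Ob kept a different order, with 8.84 in BAL17VII cells, 8.20 in BAL17 cells, 7.001 in BAL17 brains at day 21, 6.72 at day 28, 6.33 in BAL17VII brains and 5.97 in PBS brains. In it, the steps from BAL17VII cells to BAL17 cells, from these to BAL17 brains, and from BAL17 brains at day 28 to BAL17VII brains showed no overlap. H2-Ab1 and Cd74 were higher in BAL17 cells than in PBS brains without overlap, at means of 7.24 and 6.26 in BAL17 cells, against 6.47 and 5.48 in PBS brains.

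**Figure D5:**
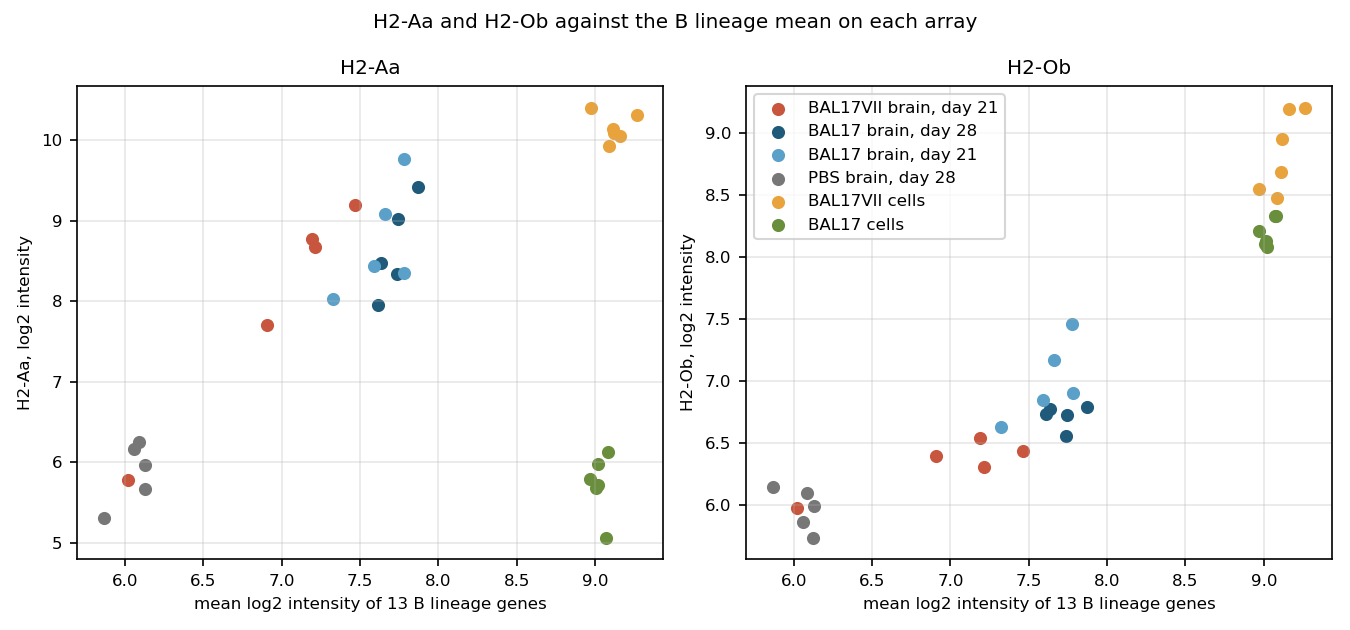
Log2 intensity of H2-Aa (left) and H2-Ob (right) against the mean log2 intensity of 13 B lineage genes on each array, coloured by group. BAL17 cells have B lineage means of 8.97 to 9.08 with H2-Aa at 5.07 to 6.12, while their H2-Ob is 8.08 to 8.33.

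Among all other genes, those most like the mean of the 9 members over the 32 arrays were Cd48 (Pearson r = 0.956), a surface glycoprotein of lymphocytes, Trim30a (0.945), C2cd6 (0.942), Usp18 (0.917), a protease that removes ISG15, and Tlr1 (0.913), a receptor for bacterial lipopeptides. Cd48 had means of 6.56 in BAL17VII brains, 6.63 in BAL17 brains at day 21, 6.72 at day 28 and 5.59 in PBS brains, with 8.21 in BAL17VII cells and 5.41 in BAL17 cells. These arrays share group and material, so the values describe likeness of pattern across groups. Each member's own r with that mean, which includes it, ran from 0.615 for H2-Ob to 0.993 for Cd74.

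Within brain groups, over 20 brains with each group mean taken away, the most like genes were Psmb8 (r = 0.954), a subunit of the immunoproteasome, Cd52 (0.933), Cybb (0.928), Ms4a1 (0.882) and Cxcl9 (0.878), a chemokine induced by interferon gamma. Without BAL17VII brain 1 these were 0.937, 0.855, 0.820, 0.805 and 0.909. H2-Aa, H2-Ea and Cd74 had 0.971, 0.957 and 0.979 with the mean they are part of, whereas Ciita had 0.505 and H2-Oa 0.396, or 0.098 without that brain. Cxcl9 was low in both lines, at 5.69 in BAL17VII cells and 5.73 in BAL17 cells, and had means of 6.56 in BAL17VII brains, 6.65 in BAL17 brains at day 21 and 6.55 at day 28, against 5.19 in PBS brains. B lineage level differed between these brains as well, and the values carry no test.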

How the data were processed

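RNA of cultured cells (12 arrays) and whole brains (20) was hybridised to whole-transcript arrays of Affymetrix. Per the submitters' processing notes, the authors used RMA and Affymetrix Expression Console. The deposited values are linear intensities, of which log2 was taken. Whether lines and brains were normalized together is not given in the sources used here. Probe sets with 1 gene symbol were kept (21789 of 35556, against 1621 with several and 12146 with none), the one with the highest mean for each gene, without an intensity filter. Arrays give no read depth, and their number limits the precision.

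Group means were compared with limma 3.58.1 in R 4.3.3 with empirical Bayes moderation, two-sided, and Benjamini-Hochberg adjustment over 19938 genes. Genes with an adjusted p under 0.05 were called. Lines (12 arrays), brains (20) and both (32) were fitted separately, the last for brains against cells and for the difference of differences. The methods were tested on simulated data. Tables were made with Python 3.11.15 and pandas 2.3.3. The members and gene lists were chosen with earlier results of these data known. Named genes are the members, the 4 list genes with the smallest adjusted p in a comparison, marker genes and the 5 most like genes, and others are marked. Alternatives were an intensity filter, quantile normalization, median centring, a pseudocount of 32, the mean of probe sets, trended moderation, array weights, a replicate block, the B lineage mean as covariate, the compared arrays alone, exact permutation and leaving out each array.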

Additional observations from a re-analysis of the deposited data

Results flagged for a closer look

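By the difference of differences given above, all 9 members were called lower, beside 7.13% of all genes. Between the lines' brains H2-DMa and H2-Oa differed by 0.07 and -0.15. Their differences of differences, -1.35 and -1.02, are thus close to the culture differences, 1.41 and 0.87, with the sign turned. This was not particular to these genes. H2-Eb1 had -2.39 against 2.15 in culture, H2-Ab1 -1.81 against 1.62 and Ciita -1.72 against 1.58, whereas H2-Ob had -1.31 against 0.64. The share of lymphoma RNA in whole brains is not known here, and its part in these values was not tested. The line difference in brains at day 21 minus that in culture was -5.13 for H2-Aa, -1.81 for H2-Ab1, -5.98 for H2-Ea, -2.39 for H2-Eb1, -1.35 for H2-DMa, -1.02 for H2-Oa, -1.31 for H2-Ob, -4.43 for Cd74 and -1.72 for Ciita. Each passed the test without BAL17VII brain 1 as well.

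Of 54 groups of arrays examined, 9 genes in 6 groups each, 2 held an array far from the others, where chance alone gives about 1 in 20. H2-Ea was 11.3 in BAL17VII culture array 2, against 11.03 to 11.12 in the other 5. H2-Ob was 6.56 in BAL17 brain 5 at day 28, against 6.73 to 6.79 in the other 4. Both arrays stayed in the comparisons, and neither gap is large beside the differences reported for these genes.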

How the results depend on the processing

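Of 1970 member values recomputed under the alternatives, 1917 kept direction and side of the threshold or were not called in either (39 of these uncalled values had another sign), 34 lost their call, 18 of them on leaving out an array, 4 gained one and 15 turned. All 15 turned with the B lineage mean as covariate, which nearly separates implanted from PBS brains. The values were -1.06 (H2-Aa), -0.48 (H2-Ab1), -0.23 (H2-Ea), -0.39 (H2-Eb1) and -1.25 (Cd74) for BAL17 brains at day 21 against PBS, -1.38, -0.63, -0.16, -0.51 and -1.27 for the same genes at day 28, and -0.11 (H2-Aa), -0.050 (H2-Ab1), -0.078 (H2-Eb1) and -0.088 (Cd74) for BAL17VII brains, with 0 members called in each. Cd74 became 1.16 between the lines' brains, in a fit not repeated without BAL17VII brain 1. For BAL17VII brains against PBS, the compared arrays alone gave 2 members called, and leaving out 1 array gave 3 to 6. H2-Ab1 there lost its call under quantile normalization (adjusted p = 0.0571), a pseudocount of 32 (0.0772) and trended moderation (0.0711). The causes were not tested.

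The fit with the replicate block called 9, 7, 5, 7, 1 and 0 members in the comparisons of the lines, of brains with PBS (BAL17 day 21, BAL17VII, BAL17 day 28), of the lines' brains and of the days, and 7, 7, 9 and 9 in those that join brains and cells, as without it. The main fits did not take the numbers as pairs. Same-numbered arrays deviated together at correlations of -0.32 to 0.48. Brains numbered 4 had correlations of 0.14 to 0.38 in every comparison between brain groups, and whether they shared handling was not tested. Calls over all genes moved by more than 1.5 times for day 28 against day 21 (122, against 185 with the filter, 231 with quantile normalization, 468 with array weights, 312 with the compared arrays alone and 6 to 174 on leaving out 1 array), for the lines' brains (2691, against 1460 with the compared arrays, 173 with the covariate and 1483 to 3767 on leaving out 1 array) and for BAL17VII brains against PBS (538, against 197 with the compared arrays and 229 to 1117 on leaving out 1 array).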
